A study of Mus musculus with 6 samples.

Results

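The RNAs described here are the small noncoding RNAs and the ribosomal RNA precursor listed in an RNA-seq table of mouse macrophages. They were chosen by symbol: names starting with Snora, Snord, Scarna, Mir and a digit, Rnu, Rny or Vaultrc, and the names Rn45s, Rmrp, Rpph1, Rn7sk and Terc, taking for each symbol the transcript with the highest mean. The rule matched 733 of the 23282 symbols in the table, and 25 of the 733 had a mean of at least 10 reads over the 6 libraries. No Rn7sk or Rny row was in the table, and Terc had 0 reads in every library. The 733 rows hold 611 miRNA genes, 69 box C/D snoRNAs, 36 box H/ACA snoRNAs, 9 Cajal body RNAs, 3 rows with Rnu names, the 2 RNAs of RNase P and RNase MRP, 1 vault RNA, Terc and Rn45s.

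The cells were peritoneal macrophages elicited with thioglycollate from female mice of strain C57BL/6, of an age the labels do not give. All 6 libraries came from cells treated for 48 hours with an siRNA, either a control (siCtl) or one against Smyd5 (siSmyd5) or Phf2 (siPhf2), and then given vehicle or Kdo2-Lipid A (KLA, a purified lipopolysaccharide that activates TLR4) at 100 ng/ml for 4 hours. SMYD5 is a histone methyltransferase and PHF2 a histone demethylase, and an siRNA lowers a transcript without deleting its gene. Each of the 6 combinations is 1 library, and the labels do not say how many animals or cultures stand behind it, so that the p-values below speak for the scatter among 6 libraries and no more. In bulk RNA, fewer cells of a type and less RNA per cell cannot be told apart. Except where another order is named, 6 values in a row stand for siCtl with vehicle, siCtl with KLA, siSmyd5 with vehicle, siSmyd5 with KLA, siPhf2 with vehicle and siPhf2 with KLA, as labelled.

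The 45S precursor, transcribed by RNA polymerase I, is cut into the 18S, 5.8S and 28S ribosomal RNAs. Box C/D snoRNAs guide 2′-O-methylation and box H/ACA snoRNAs guide pseudouridylation of that RNA, and most vertebrate snoRNAs are trimmed out of the introns of protein-coding or noncoding host genes. RNase MRP cuts the precursor, RNase P trims the 5′ end of tRNAs, U11 recognises the 5′ splice site of minor introns, vault RNA sits in the vault particle, and miRNAs are cut from hairpins in longer transcripts. Nearly all of these mature RNAs lack a poly(A) tail, whereas the libraries were made from RNA selected for its tail.

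The sequences below show what separates the families. Each is the GENCODE M21 transcript on GRCm38, with capitals on the letters searched, and these members were picked because the results turn on them. Box C/D snoRNAs are marked TGATGA followed by CTGA, the common forms of their C and D boxes. Snord90 lies at chr2:37400047-37400157 on the minus strand in an intron of Rc3h2, Snord49b at chr11:62603079-62603150 on the plus strand in an intron of 2410006H16Rik, and Snord104 at chr11:106500993-106501062 on the plus strand with no host gene on its strand.
Snord90: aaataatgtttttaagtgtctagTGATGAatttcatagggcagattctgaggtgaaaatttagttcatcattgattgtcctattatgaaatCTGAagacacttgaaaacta
Snord49b: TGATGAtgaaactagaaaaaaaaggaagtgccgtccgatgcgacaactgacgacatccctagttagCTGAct
Snord104: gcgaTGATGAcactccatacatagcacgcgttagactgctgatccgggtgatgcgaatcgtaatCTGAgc
The 2 boxes stood in this order in 45 of the 67 box C/D members with a sequence (67.2%) and in 7 of the 10 of them that reached 10 reads (70.0%).

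Box H/ACA snoRNAs end in ACA and a short tail, marked in Snora69 (chrX:37082912-37083042, minus strand, in an intron of Rpl39). An ACA stood in the last 20 bases of 34 of 36 box H/ACA members (94.4%), of 3 of the 4 that reached 10 reads (75.0%), and of 15 of the 67 box C/D members (22.4%). Rnu11, the U11 RNA (chr4:132270080-132270213, minus strand), has ATTTTTTG, marked below, a stretch of the kind bound by Sm proteins. ATTTTTG or ATTTTTTG was found in 2 of the 3 members with Rnu names and a sequence and in 4 of the 125 members of any kind with one. These motifs were searched on the RNA strand alone.
Snora69: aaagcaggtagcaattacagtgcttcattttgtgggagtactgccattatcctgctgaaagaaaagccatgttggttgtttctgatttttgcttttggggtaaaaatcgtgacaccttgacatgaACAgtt
Rnu11: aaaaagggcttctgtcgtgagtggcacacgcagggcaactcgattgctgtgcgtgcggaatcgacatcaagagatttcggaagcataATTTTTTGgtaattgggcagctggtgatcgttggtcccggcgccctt
The longest run of A within the RNA was 2 to 8 bases in the 18 members that reached 10 reads and have a sequence, and 1 to 8 bases in all 125.

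Of the miRNA rows that reached 10 reads in the siCtl and siSmyd5 libraries, Mir147, Mir703, Mir1892 and Mir686 have the mature sequences below, from RefSeq on GRCm38.p6, with the seed (bases 2 to 8) in capitals. These 4 seeds are all different, and for Mir147 the 5p arm alone is shown.
mmu-miR-147-5p: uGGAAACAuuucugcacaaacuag
mmu-miR-703: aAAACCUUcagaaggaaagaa
mmu-miR-1892: aUUUGGGGacgggagggaggau
mmu-miR-686: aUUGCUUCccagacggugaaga
Of these hairpins 3 lie inside exons of an mRNA, so that a fragment of the mRNA and one of the miRNA precursor cannot be told apart. Mir147 (chr2:122640803-122640881) is in a UTR of AA467197, Mir1892 (chr12:54645933-54646012) in a UTR of Sptssa, listed in the table as 1110002B05Rik, and Mir686 (chr14:54616677-54616785) in the coding sequence of Psmb5, a catalytic proteasome subunit. The Mir686 hairpin, with the mature part in capitals, was found letter for letter at bases 266 to 374 of the 899 bases of a Psmb5 transcript.
Mir686 hairpin: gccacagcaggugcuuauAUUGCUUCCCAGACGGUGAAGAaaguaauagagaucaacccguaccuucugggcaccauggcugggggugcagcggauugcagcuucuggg
Whether the reads of a row named for a miRNA gene came from the hairpin or from the longer transcript across it was not tested.

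The libraries differed in depth and in one point of labelling. With 1 transcript per symbol they held 420141 to 1429520 reads, and without Rn45s the siPhf2 libraries held 192421 and 119136 against 910904 to 1419176 in the other 4. The tag totals in the file header gave whole reads for the siCtl and siPhf2 columns only when those of the 2 arms were exchanged, so these arms are called siCtl-labelled and siPhf2-labelled where a direction is drawn. Smyd5 had 44, 29, 9, 20, 3 and 0 reads and did not pass the test in the siSmyd5 arm (log2 -0.64, edgeR adjusted p = 0.38). Phf2 had 113, 120, 52, 34, 29 and 8 reads, and at the scale of the other genes was not lower in the siPhf2-labelled arm (log2 0.90, edgeR adjusted p = 0.098), so neither target checks its label. The siCtl and siSmyd5 arms share the library barcodes GT for vehicle and AC for KLA, while siPhf2 has TG and CA, so that arm and barcode cannot be told apart for siPhf2. All 10 macrophage markers were above 0 in every library. Of the other cell types, 0 to 3 of 5 T cell, 1 to 5 of 5 B cell, 0 to 3 of 5 neutrophil, 0 to 1 of 5 eosinophil, 0 to 4 of 4 mast cell, 5 to 6 of 6 stromal and 0 to 4 of 4 epithelial markers were, and the eosinophil genes Epx, Prg2, Ear6 and Il5ra were at 0 everywhere. On the TMM scale the summed macrophage markers ran from 10497 to 16064 CPM, with Mertk (log2 1.60) and Csf1r (1.37) higher and Fcgr1 (-1.18) lower in the siPhf2-labelled arm. The stromal markers summed to 430.35 and 337.07 CPM there against 649.04 to 864.63 elsewhere, with Col3a1 (-2.55) and Dcn (-1.86) lower, and the neutrophil marker S100a8 was higher with siSmyd5 (1.25, edgeR adjusted p = 0.0386). The part of these cells in the results was not tested.

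The ribosomal RNA precursor took most of the reads counted on the listed genes in the siPhf2-labelled libraries and a small share in the others. Rn45s had 8439, 10344, 11019, 7389, 384634 and 301005 reads. With 1 transcript per symbol these are 0.621%, 0.724%, 1.20%, 0.804%, 66.7% and 71.6% of the counted reads. The 2 siPhf2-labelled values stand far above the 4 others, which lie close together. Counted reads are only part of a library: all rows together held 22.0% and 30.6% of the siPhf2-labelled tags. Of all tags, the members together, Rn45s included, were 13.0% and 19.7% in these libraries. The deposited row covers chr17:39979942-39985774 (mm9, plus strand), and since ribosomal DNA is repeated, reads from its many near-identical copies are placed on a single row by rules not given in the sources used here.

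How large the Rn45s difference is depends on the scale. Scaling by TMM, which sets most of the genes near no change, siPhf2-labelled over siCtl-labelled was 452 with vehicle (95% interval 442.3 to 461.9) and 472.8 with KLA (463.6 to 482.2). Scaling to total reads gave 105.7 and 97.55, and scaling to the header tag totals gave 74.43 and 93.6. Each scale moves all genes together: the median log2 difference over the 7995 genes tested was -0.13 with TMM, -2.28 with total reads and -2.60 with header tags. The averaged log2 difference of Rn45s moved with that median, from 8.86 to 6.66 and 6.40 (with TMM, SE 0.29 and edgeR adjusted p = 7.436e-14). Intervals here cover counting error only, since PCR copies are not separate molecules.

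All members together were 0.655%, 0.757%, 1.25%, 0.865%, 67.9% and 72.6% of the reads counted with 1 transcript per symbol, and without Rn45s 0.0348%, 0.0331%, 0.0528%, 0.062%, 3.85% and 3.39%. In these last shares Rn45s is also left out of the total. The small RNAs thus had their highest shares in the same 2 libraries as the precursor. Per 1000 reads of Rn45s, a ratio within a library that needs no scaling, the other members had 55.7, 45.4, 43.7, 76.5, 19.2 and 13.4 reads. The 2 siPhf2-labelled values are the lowest.

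**Figure D1:**
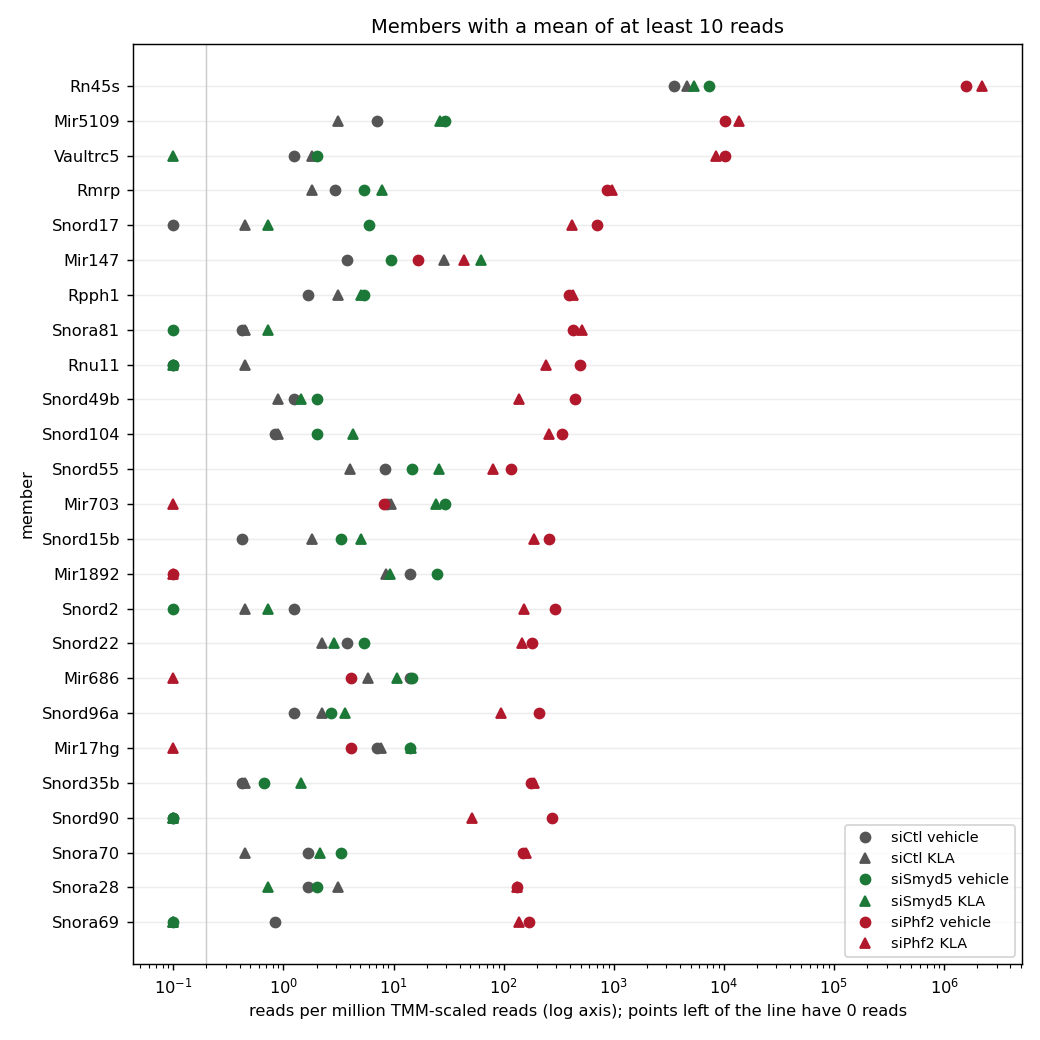
TMM-scaled CPM (log axis) of the 25 members with a mean of at least 10 reads, 1 point per library; points left of the line have 0 reads. In 20 members both siPhf2-labelled libraries lie above the other 4, and in 4, all miRNA rows, both lie below. Most of the 20 and all of the 4 reached 10 reads only through the libraries in which they are high.

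Of the 25 members, 20 were above all other libraries in both siPhf2-labelled libraries on the TMM scale, against 14.6% of the 7995 genes, and 4 were below, against 27.8%. In the edgeR fit averaged over both agents 20 were called higher (8.08% of all genes) and 0 lower (4.43%). An unadjusted p under 0.05 was seen in 21 of the 25, against 2256 of the 7995 genes. Of the 25, 17 reached 10 reads only through the siPhf2-labelled libraries and so had to differ, and nothing is read from that count. The 8 that reach a mean of 10 reads in the siCtl and siSmyd5 libraries alone are free of this choice toward high values. Of these, Rn45s, Mir5109 and Snord55, which also reach 10 reads in the siPhf2-labelled libraries alone, were called higher. The miRNA rows Mir147, Mir703, Mir1892, Mir686 and Mir17hg did not pass. These miRNA rows reached 10 reads only through the siCtl and siSmyd5 libraries, a choice toward low siPhf2-labelled values. The 4 members below all others are among them, so nothing is read from that count either. Compared by size in 1 library against 1, with no test, 20 members were higher with vehicle (10.8% of all genes) and 20 with KLA (7.89%).

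Rmrp and Rpph1 are the RNA subunits of RNase MRP and RNase P, both made by RNA polymerase III from genes of their own. Rmrp (chr4:43505657-43505931 in mm9, minus strand) had 7, 4, 8, 11, 209 and 132 reads. Rpph1 (chr14:51427122-51427446 in mm9, minus strand) had 4, 7, 8, 7, 95 and 58. Both siPhf2-labelled libraries were above the rest in each, and the 4 others overlap. Summed, siPhf2-labelled over siCtl-labelled was 274.1 with vehicle (151.0 to 554.9) and 280.6 with KLA (153.3 to 571.7) on the TMM scale, and 64.1 and 57.9 scaled to total reads. The averaged log2 difference was 8.53 for Rmrp and 7.37 for Rpph1, a description only, since both rows reached 10 reads through the siPhf2-labelled libraries alone. The Rmrp gene lies antisense to Ccdc107, and whether strand was used in counting is not given in the sources used here.

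Vaultrc5, a vault RNA transcribed by RNA polymerase III, had 3, 4, 3, 0, 2478 and 1147 reads. It was near 0 in 4 libraries and the row with the most reads among the small RNAs in the siPhf2-labelled vehicle library. The ratio was 8191 with vehicle (2800 to 39750) and 4659 with KLA (1815 to 17130), wide because the siCtl-labelled counts are 3 and 4. The averaged log2 difference was 12.50 (SE 0.41), again a description of a row that reached 10 reads only through these libraries.

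Rnu11 encodes U11, the RNA of the minor spliceosome whose sequence is given above. It had 0, 1, 0, 0, 119 and 33 reads. With vehicle it was at least 393.4-fold higher in the siPhf2-labelled library, setting the siCtl-labelled 0 to the floor of 3 reads per library, and the exact 95% interval, which also takes in the counting error of the other library, starts at 315.0. Both siPhf2-labelled counts stand clear of the 0 to 1 reads elsewhere. The 3 rows with Rnu names, one of which (Rnu73b) carries the box C/D letters in its sequence, summed to 2, 2, 0, 0, 147 and 44 reads.

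Box C/D snoRNAs as a family were far higher in the siPhf2-labelled libraries. Their 69 rows summed to 101, 88, 127, 148, 1263 and 428 reads, with 33, 31, 37, 37, 59 and 49 rows detected. The TMM ratio was 124.0 with vehicle (101.2 to 153.4) and 79.02 with KLA (62.69 to 100.6), and 29.0 and 16.3 scaled to total reads. This sum takes all rows of the family and none was left out for its level.

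Of the box C/D members that reached 10 reads, 8 lie in introns. Snord17 had 0, 1, 9, 1, 170 and 57 reads, Snord49b had 3, 2, 3, 2, 108 and 19, and Snord104 had 2, 2, 3, 6, 82 and 35. Snord15b had 1, 4, 5, 7, 63 and 26, Snord2 had 3, 1, 0, 1, 70 and 21, and Snord35b had 1, 1, 1, 2, 43 and 26. In these 6 the siPhf2-labelled counts do not overlap the others. Each of the 6 reached 10 reads only through the siPhf2-labelled libraries, so this is a description only. Snord22 had 9, 5, 8, 4, 44 and 20 reads, and Snord96a had 3, 5, 4, 5, 51 and 13. The same holds for these, and Snord90 also reached 10 reads through those libraries alone. Snord90 had 0, 0, 0, 0, 66 and 7, so that it was seen in the siPhf2-labelled arm alone, at least 218.2-fold higher with vehicle (interval from 172.5) and at least 37.91-fold higher with KLA (interval from 23.42) against the floor of 3 reads. With Snord90 the siPhf2 call rests on the tool: DESeq2 gave an adjusted p of 0.145.

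Snord55 differs from the other box C/D members, being readily counted in every library. It had 20, 9, 22, 36, 28 and 11 reads, which overlap between the arms before scaling. The TMM ratio was 13.88 with vehicle (7.546 to 26.0) and 19.86 with KLA (7.481 to 54.21). Its averaged log2 difference, 4.01, was the smallest of the 20 called (edgeR adjusted p = 1.825e-05), and it was 1.85 scaled to total reads and 1.52 to header tags.

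Box H/ACA snoRNAs as a family were also far higher in the siPhf2-labelled libraries. Their 36 rows summed to 44, 39, 30, 30, 502 and 264 reads, with 20, 13, 16, 16, 32 and 29 rows detected. The ratio was 113.1 with vehicle (83.05 to 157.7) and 110.0 with KLA (78.36 to 158.2), and 26.46 and 22.69 scaled to total reads. Both intervals overlap those of box C/D, and the difference between the families was not tested. Among the 4 members that reached 10 reads, Snora81 had 1, 1, 0, 1, 102 and 70, Snora70 had 4, 1, 5, 3, 36 and 22, Snora28 had 4, 7, 3, 1, 32 and 18, and Snora69 had 2, 0, 0, 0, 41 and 19. The siPhf2-labelled counts are above all others in each of these, a description only, since all 4 reached 10 reads through those libraries alone. The 9 Cajal body RNAs, which guide modification of spliceosomal RNAs, had 3, 1, 8, 8, 23 and 8 reads in sum.

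The host genes of these snoRNAs did not follow them. These snoRNA rows passed the threshold on mean reads only through the siPhf2-labelled libraries, and the hosts were not chosen for high values there. The size of the contrast is therefore partly set by this choice and is a description only. The family sums above, which leave out no row for its level, are free of it. Snx5, which holds Snord17, had 610, 510, 530, 395, 26 and 15 reads, and its vehicle ratio was 0.4227 (0.2739 to 0.6254) where that of Snord17 was at least 561.9 against the floor (interval from 452.1). Eif4a2, a translation initiation helicase that holds both Snora81 and Snord2, had 207, 161, 115, 81, 16 and 9 reads and a ratio of 0.7665 (0.4301 to 1.275), against 1012 for Snora81 (177.5 to 40340) and 231.4 for Snord2 (75.99 to 1149). Per 100 reads of its host, Snora81 had 0.483, 0.621, 0, 1.24, 638 and 778 reads. In the siPhf2-labelled libraries the snoRNA row thus had more reads than its host, and in the others far fewer. Rps3 (holding Snord15b, 0.7838), Rack1 (Snord96a, 0.8623), Rc3h2 (Snord90, 0.9015) and 2410006H16Rik (Snord49b, 0.85) had vehicle intervals that include 1. With KLA the interval of Rps3 was below 1, at 0.6082 (0.3735 to 0.9388). Those of Rack1, Rc3h2 and 2410006H16Rik again included 1. Eif5 (Snora28), at 0.4368 with vehicle (0.2855 to 0.6419), was below 1. Snhg1, the noncoding host of Snord22, had 45, 28, 34, 33, 0 and 0 reads, with a vehicle interval that ends at 0.8472. Rpl10 (Snora70) was the exception at 12.4 (2.668 to 62.47), on few reads (4 in the siCtl-labelled vehicle library), and Rpl39 (Snora69) had 0 reads there.

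**Figure D2:**
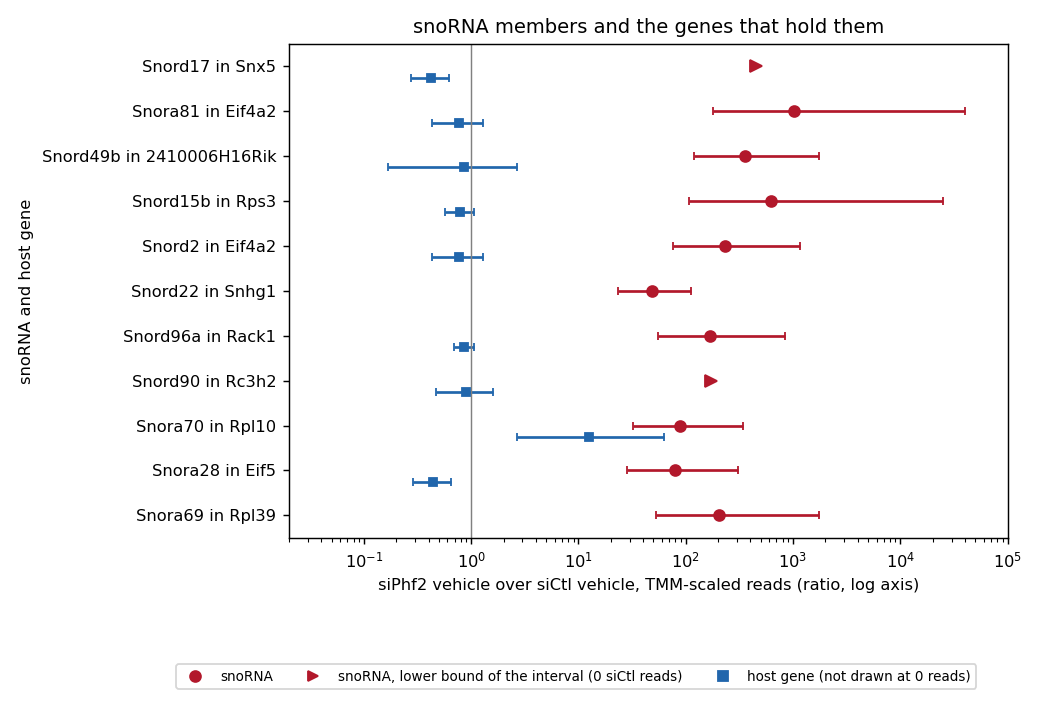
Ratio of siPhf2-labelled to siCtl-labelled TMM-scaled reads with vehicle (log axis) for the snoRNA members whose host genes are described here and for those hosts, with exact 95% intervals of counting error. The snoRNAs lie between 48.48 for Snord22 and 1012 for Snora81 where both libraries have reads (those at 0 in the siCtl-labelled library are drawn at the lower end of their interval). The hosts drawn lie between 0.4227 and 0.9015 except for Rpl10 at 12.4. Snhg1 and Rpl39, with 0 reads in the siPhf2-labelled library, are not drawn. The snoRNAs passed the threshold on mean reads only through the siPhf2-labelled libraries, a choice toward high values that was not made for the hosts.

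Over the whole table, 65 genes hold a snoRNA member in an intron and 46 of these were tested. In the averaged siPhf2 effect 4 rose and 4 fell (8.08% and 4.43% of all genes), with a median log2 difference of -0.33 against -0.13 for all genes. Gas5 (log2 3.87) and Snhg8 (2.61), both noncoding host genes, and Rabggtb (1.37), a prenyltransferase subunit, rose the most. Gnl3 (-1.94), a nucleolar GTPase, fell, as did Eif5 (-1.59) and the import factor Ipo7 (-1.59).

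miRNA genes are given here by where the hairpin lies. The 10 miRNA rows with no match to a GRCm38 gene, of which Mir5109 is one, had a ratio of 1188 with vehicle and 3824 with KLA. The 279 intronic hairpins summed to 31, 28, 24, 35, 35 and 12 reads, a TMM ratio of 11.2 with vehicle (6.706 to 18.78) and 6.963 with KLA (3.225 to 14.14). The 197 with no host on their strand had 7.792 (4.785 to 12.59) and 10.48 (5.662 to 18.98). The 67 in exons of noncoding or retained transcripts had 54.54 (25.4 to 134.1) and 12.83 (6.065 to 26.64). The 57 inside mRNA exons had 187, 222, 131, 190, 59 and 32 reads and ratios of 3.129 (2.294 to 4.213) and 2.342 (1.564 to 3.403), and Mir17hg, a long host transcript, is described with the single rows. Scaled to total reads the group in mRNA exons turned below 1, at 0.7318 and 0.4832, so for it the scale sets the direction. The 94 intronic snoRNAs, at 122.7 with vehicle (102.2 to 148.4) and 90.49 with KLA (73.55 to 112.2), lay above the intronic miRNA genes with intervals far apart.

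**Figure D3:**
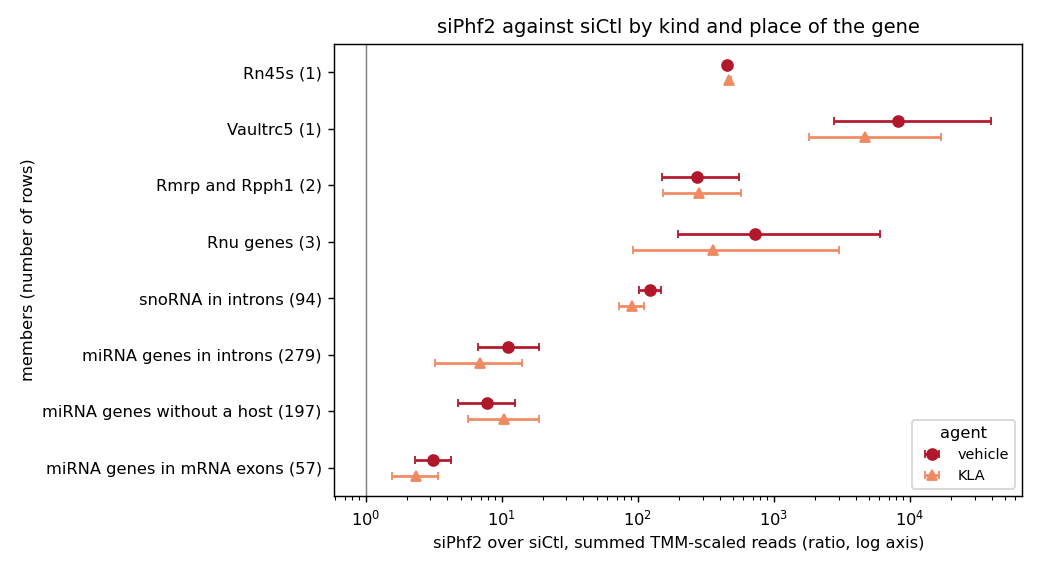
Ratio of siPhf2-labelled to siCtl-labelled summed TMM-scaled reads (log axis) by kind and place of the gene, with exact 95% intervals of counting error, for vehicle and KLA. Intronic snoRNAs lie at 122.7 and 90.49, intronic miRNA genes at 11.2 and 6.963, and miRNA genes in mRNA exons at 3.129 and 2.342.

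Mir5109 (chr5:17282567-17282653 in mm9, minus strand) had 17, 7, 44, 37, 2470 and 1871 reads. The siPhf2-labelled counts are far above the rest, and the siSmyd5 counts are above the siCtl-labelled ones. The TMM ratio of siPhf2-labelled to siCtl-labelled was 1441 with vehicle (898.1 to 2477) and 4342 with KLA (2103 to 10820). Per 1000 reads of Rn45s it had 2.0 and 0.677 reads for siCtl-labelled cells, 3.99 and 5.01 with siSmyd5 and 6.42 and 6.22 with siPhf2 as labelled, a far narrower range. Mir5109 alone made most of the miRNA reads in the siPhf2-labelled libraries, where the family summed to 2687 and 1962 reads against 297 to 361 elsewhere.

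The remaining 5 miRNA rows that reached 10 reads, with Mir147 among them, had few or no reads in the siPhf2-labelled libraries. They reached that mean only through the siCtl and siSmyd5 libraries. Mir703 had 21, 21, 44, 34, 2 and 0 reads, Mir1892 had 34, 19, 37, 13, 0 and 0, Mir686 had 34, 13, 22, 15, 1 and 0, and Mir17hg, the host transcript of the miR-17 to miR-92 cluster, had 17, 17, 21, 20, 1 and 0. These siPhf2-labelled libraries hold few reads on listed genes outside Rn45s. The vehicle ratios, 0.9445 for Mir703 (0.1074 to 3.864), 0.2917 for Mir686 (0.007176 to 1.739) and 0.5833 for Mir17hg (0.01396 to 3.723), have intervals that include 1. For Mir1892, with 0 reads, the interval ends at 1.136. A difference in these rows was not detectable at this depth. None of the 5 passed (averaged log2 -7.05 for Mir1892, edgeR adjusted p = 0.091, and 1.05 for Mir147, adjusted p = 0.27), whereas scaled to total reads or header tags all 5 were called lower, along with the median gene. The hosts Sptssa, with 57, 48, 46, 23, 2 and 3 reads, and Psmb5, with 89, 46, 76, 55, 9 and 2, were low in the same libraries.

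**Figure D4:**
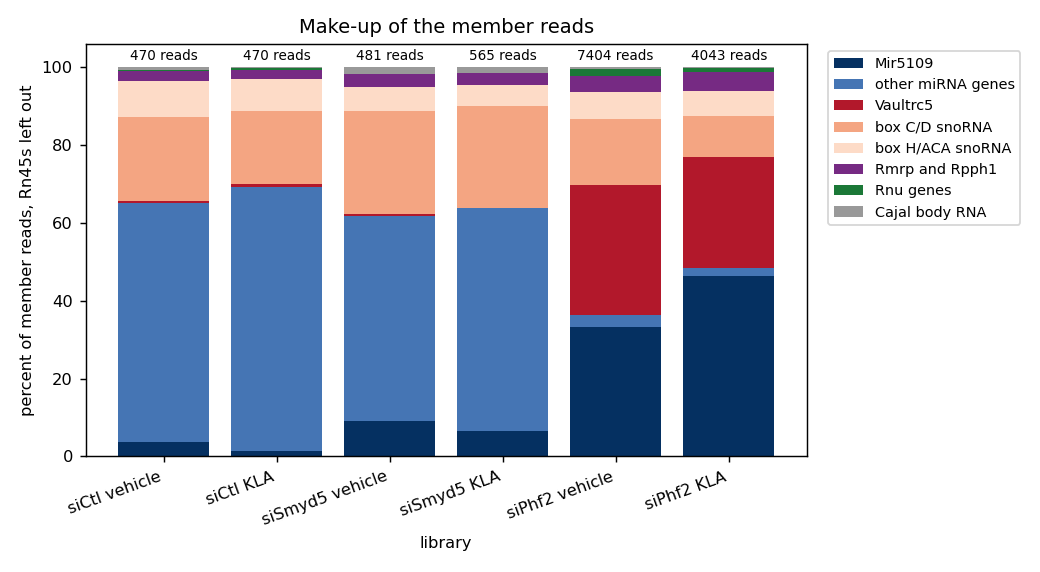
Make-up of the member reads in each library with Rn45s left out, as percent of reads not corrected for length, by kind of RNA, with Mir5109 drawn apart from the other miRNA rows and the number of reads above each bar. miRNA rows make 61.7% to 69.1% in the siCtl and siSmyd5 libraries and 36.3% and 48.5% in the siPhf2-labelled ones, where Vaultrc5 makes 33.5% and 28.4%.

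With Rn45s left out, miRNA rows were 65.1%, 69.1%, 61.7%, 63.9%, 36.3% and 48.5% of member reads, and Vaultrc5 was 0.638%, 0.851%, 0.624%, 0%, 33.5% and 28.4%. These shares need no scaling between libraries.

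Few members were higher with siSmyd5 than with siCtl. In the edgeR fit 4 of 25 were called higher (2.71% of all genes), with a median log2 difference of 0.82 against 0.00 for all genes tested, and 0 were lower (286 of the 7995 genes). An unadjusted p under 0.05 was reached by 9 of the 25, against 1886 of the 7995 genes. Mir5109 rose by log2 2.42 (SE 0.37, adjusted p = 0.002743), Mir703 by 1.56 (SE 0.33, adjusted p = 0.01148), Snord55 by 1.67 (SE 0.42, adjusted p = 0.02698) and Mir147 by 1.14 (SE 0.30, adjusted p = 0.03446). Of these, 3 are miRNA rows and Snord55 is a box C/D snoRNA. Limma on voom weights called 0 of the 4, and DESeq2 called 1. Without any 1 siCtl-labelled or siSmyd5 library most or all of the 4 no longer passed, so the calls rest on single libraries and on the tool. Rn45s did not pass (log2 0.66, adjusted p = 0.065).

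Agent by agent, with 1 library against 1 and no test, 5 members were higher in siSmyd5 with vehicle (2.4% of all genes) and 5 with KLA (1.73%). Lower were 0 members, against 401 of the 7995 genes with vehicle and 291 with KLA. Rn45s was 2.10 times as high with vehicle (2.041 to 2.161) and 1.143 with KLA (1.109 to 1.177). Mir5109 was 4.163 (2.331 to 7.772) and 8.455 (3.721 to 22.48). Mir703 was 3.37 (1.962 to 5.967) and 2.59 (1.461 to 4.696), and Mir147 was 2.502 (1.009 to 6.553) and 2.15 (1.537 to 3.019). These 3 miRNA rows were higher with both agents. Snord17 with vehicle was at least 4.826-fold higher against the floor (9 reads against 0, interval from 3.175). With KLA, Rmrp was 4.399 (1.304 to 18.94) and Snord55 was 6.399 (3.024 to 15.11). The box C/D family was 2.023 with vehicle (1.545 to 2.653) and 2.69 with KLA (2.053 to 3.544), while box H/ACA was 1.097 (0.6657 to 1.784) and 1.231 (0.7382 to 2.032). The siSmyd5 and siPhf2 comparisons share the siCtl-labelled libraries.

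A single member, Mir147, rose with KLA. It passed the threshold on mean reads only through the KLA libraries, a choice toward values higher with KLA. Its rise is therefore a description only. Mir147 had 9, 64, 14, 86, 4 and 6 reads: the KLA libraries of the siCtl-labelled and siSmyd5 arms stand above both vehicle libraries, and the siPhf2-labelled counts are low. In the averaged fit it rose by log2 2.65 (SE 0.32, edgeR adjusted p = 3.961e-06), and the adjusted p over the alternatives in which it was tested ran from 2.6e-15 to 0.030. KLA over vehicle was 7.686 in the siCtl-labelled arm (3.806 to 17.57), 6.603 with siSmyd5 (3.73 to 12.58) and 2.656 with siPhf2 as labelled (0.6299 to 12.8), the last with an interval that includes 1. AA467197, whose UTR holds the hairpin and which encodes a small mitochondrial protein, had 30, 131, 32, 142, 0 and 3 reads, a ratio of 4.72 in the siCtl-labelled arm (3.155 to 7.273) and 4.77 with siSmyd5 (3.232 to 7.237). Per 100 reads of AA467197, Mir147 had 30 reads with vehicle and 48.9 with KLA in the siCtl-labelled arm, 43.8 and 60.6 with siSmyd5, and 200 in the siPhf2-labelled KLA library, on 6 against 3 reads.

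In all, 1 of 25 members was called higher with KLA in the averaged fit (11.1% of all genes) and 2 lower (4.57%), with a median of -0.16 against -0.03. The 2 lower ones were Snord90 (log2 -2.35, edgeR adjusted p = 0.006756) and Snord49b (-1.49, adjusted p = 0.008559), both box C/D snoRNAs read mostly in the siPhf2-labelled arm. Without either siPhf2-labelled library Snord49b was at -0.45 (adjusted p = 0.77), and Snord90, with 0 reads elsewhere, could not be fitted. Rn45s did not pass (log2 0.14, adjusted p = 0.68). By size, in the siCtl-labelled arm Mir147 alone was higher (6.92% of all genes) and Mir686 alone lower, at 0.4133 (0.2002 to 0.8035; 2.4% of all genes). With siSmyd5, Mir147 alone was higher (8.68% of all genes), and Mir1892, at 0.3777 (0.1842 to 0.727), and Snord17, at 0.1194 (0.002725 to 0.862), were lower (3.48%). In the siPhf2-labelled arm 4 members were lower (6.97% of all genes) and 0 higher: Snord90 at 0.1878 (0.07269 to 0.409), Snord49b at 0.3115, Snord96a at 0.4514 and Rnu11 at 0.4911 (0.3234 to 0.7274). These 4, with the 2 lower ones of the averaged fit among them, passed the threshold on mean reads only through the siPhf2-labelled vehicle library. That is a choice toward values lower with KLA. Nothing is read from either count of lower members, and their values are a description only. Mir686 passed that threshold only through the vehicle libraries, again a choice toward values lower with KLA. Mir147 passed it only through the KLA libraries, a choice toward values higher with KLA. The counts of higher members that hold Mir147, and that of lower members in the siCtl-labelled arm, are likewise a description only.

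Within the siPhf2-labelled arm the small RNAs could be set against Rn45s, read by read, without any scaling. KLA over vehicle per Rn45s read was 0.433 for box C/D (0.3872 to 0.4836), 0.672 for box H/ACA (0.5768 to 0.7815), 0.7986 for the RNase P and MRP pair (0.6627 to 0.9605), 0.5915 for Vaultrc5 (0.551 to 0.6346) and 0.9331 for miRNA rows (0.8798 to 0.9893). It was 0.3825 for the rows with Rnu names (0.2667 to 0.5389) and 0.4445 for Cajal body RNAs (0.1719 to 1.029). The values differ between families, with no test of the difference beyond the counting intervals. Among the 19 single members with at least 30 reads in this arm it was lowest for Snord90 at 0.1355 (0.05245 to 0.2952), then Snord49b at 0.2248 (0.1303 to 0.3683), Snord96a at 0.3257 and Rnu11 at 0.3544 (0.2333 to 0.5249), and it was 0.8769 for Snora81 (0.6375 to 1.2) and 0.9679 for Mir5109 (0.911 to 1.028). The 69 snoRNA rows under 100 bases gave 0.4216 (0.371 to 0.4783) and the 36 of 100 bases or more gave 0.6026 (0.5306 to 0.6833), so the shorter ones were lower. Length goes with family, with a median of 67 bases for box C/D and 118.5 for box H/ACA. A part of length apart from family was not tested. Since each is 1 library, these intervals compare 2 libraries and not the agents. Snord90, Snord49b, Snord96a and Rnu11 passed the threshold on mean reads only through the vehicle library of this arm. Their place at the low end is a description only.

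**Figure D5:**
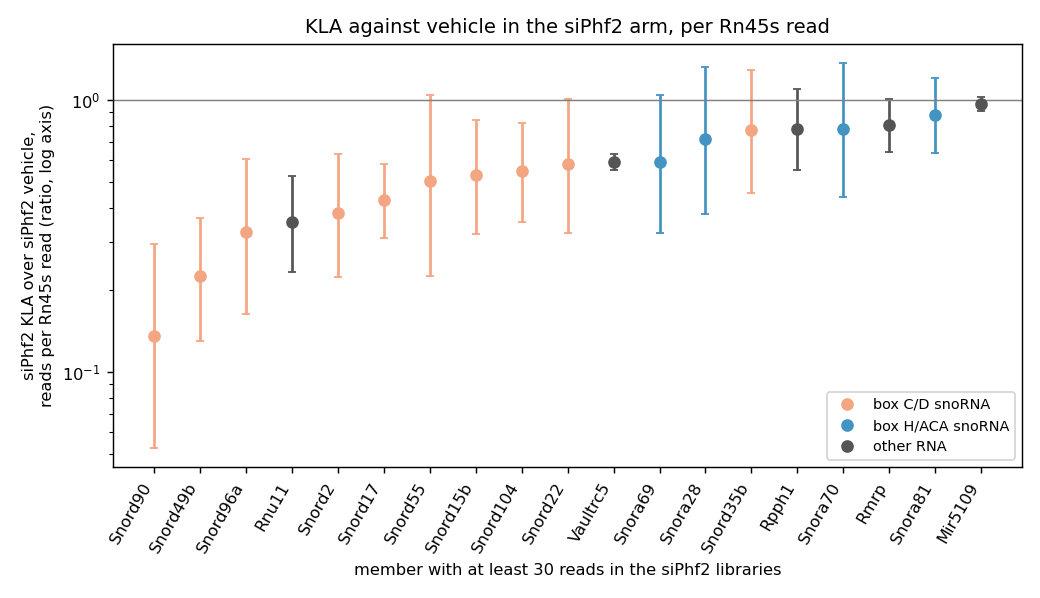
KLA over vehicle in the siPhf2-labelled arm, per Rn45s read (log axis), for the 19 members with at least 30 reads in the 2 libraries, with exact 95% intervals of counting error. The values run from 0.1355 for Snord90 to 0.9679 for Mir5109, and the line at 1 stands for a change equal to that of Rn45s. The lowest members passed the threshold on mean reads only through the vehicle library, a choice toward low values.

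The 708 members under a mean of 10 reads summed to 271, 274, 217, 273, 1089 and 432 reads, and 483 members had no read in any library. The 5 just under the threshold reached their means mostly through the siPhf2-labelled libraries, so nothing is read from their order: Mir5117 (mean 9.83) had 4, 1, 3, 3, 39 and 9 reads, Snora16a (9.5) had 1, 0, 1, 2, 29 and 24, Snora3 (8.67) had 2, 5, 3, 2, 27 and 13, Snord73a (8.0) had 2, 0, 2, 2, 36 and 6, and Snord95 (7.83) had 4, 0, 1, 3, 29 and 10. Just above it, Snora69, Snora28 and Snora70 had means of 10.33, 10.83 and 11.83.

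The proteins that bind or make these RNAs are read against the 8.08% of all genes that were called higher and the 4.43% called lower. In the siPhf2 effect 0 of 5 box C/D proteins, 0 of 6 box H/ACA proteins, 0 of 5 proteins of RNase P and MRP and 0 of 12 RNA polymerase I genes passed, with medians of -1.03, -0.44, -1.14 and -0.90 against -0.13 for all genes. At an unadjusted p under 0.05 in edgeR the counts were 1, 2, 2 and 4, against 2256 of the 7995 genes. Of 11 vault, Ro, La and 7SK proteins 3 rose, all of them vault proteins: Tep1 (log2 1.90), Parp4 (1.42) and the major vault protein Mvp (0.90). Ssb, the La protein, which binds the 3′ ends of RNA polymerase III transcripts, fell by 1.45. Of 23 RNA polymerase III genes Gtf3c1 rose (1.23) and Gtf3a, the 5S rRNA factor, fell, with 0 reads in both siPhf2-labelled libraries. Of 28 rRNA processing genes Utp20 rose (1.01), and Utp15 (-1.88) and the nucleolar chaperone Npm1 (-1.86) fell. Of 12 miRNA processing genes Tnrc6b (1.97) and Eif2c2, the Argonaute 2 gene (1.24), rose. Of 12 Integrator genes Ints1 rose (1.10), and of 8 poly(A) tail genes Papd7 rose (1.42) and Pabpc1 fell (-0.92).

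Long noncoding nuclear RNAs rose in the same libraries. All 4 tested rose in the siPhf2-labelled arm, with a median log2 difference of 4.42, including Kcnq1ot1 (6.34), Malat1 (5.67) and the paraspeckle RNA Neat1 (3.18). Malat1, a nuclear RNA with no poly(A) tail of the usual kind, had 1759, 1483, 2300, 1570, 10572 and 3968 reads, well above the rest in the siPhf2-labelled libraries. Of the 17 tested members of a list of snoRNA and miRNA host genes, Gas5, Snhg8 and Rnf149 (0.87) rose. The histone genes without a poly(A) tail, 68 listed, summed to 65, 47, 38, 38, 16 and 10 reads, and the 1 tested did not pass. On the TMM scale these sums were 27.12, 21.2, 25.51, 27.42, 66.21 and 73.28 CPM, highest in the siPhf2-labelled libraries. Of 294 other noncoding transcripts tested that are not members, 32 rose and 11 fell in the siPhf2-labelled arm (8.08% and 4.43% of all genes). Their median was -0.17, against -0.13 for all genes, so they did not rise as a group.

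In the same lists, calls with siSmyd5 stand beside 2.71% of all genes called higher and 286 of the 7995 genes called lower. Of the 7995, 1886 had an unadjusted p under 0.05 in edgeR with siSmyd5. Calls with KLA stand beside 11.1% higher and 4.57% lower. With siSmyd5, Ssb (0.81), Taf1d (1.02), Malat1 (0.91), Snhg6 (1.42) and Rpl13a (0.72) rose and Bdp1 (-0.83) and Ints1 (-0.91) fell, and 0 box C/D, box H/ACA, RNase P and MRP, rRNA processing or miRNA processing genes passed in edgeR (1, 1, 2, 7 and 5 at an unadjusted p under 0.05). With KLA, the ribosome assembly genes Rrs1 (1.92) and Wdr43 (0.89) rose with the box C/D protein Nop58 (0.85), Gtf3c5 (1.08), Bdp1 (0.72), Ints12 (0.73), Papd7 (2.10) and Rnf149 (1.18). Tnrc6b (-1.37), Ints9 (-1.002), Ints5 (-0.87), Kcnq1ot1 (-2.59) and Neat1 (-1.09) fell.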

How the data were processed

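The libraries were poly(A)-selected RNA, fragmented, tailed, reverse transcribed, size-selected as cDNA and sequenced on an Illumina Genome Analyzer 2, per the labels' protocols. HOMER and mm9 are named, with no role or version, in the submitters' processing notes; how strand and reads matching several places were counted is not given in the sources used here. The deposited values are a signal, reads per gene scaled to 10000000 tags, per the file headers. Dividing by the steps of each column gave whole reads, within 0.02 of a whole number, for 100% of values, so the count test (edgeR) was run on those reads in place of a test on the deposited signal. The tag totals of the siCtl and siPhf2 columns had to be exchanged to do so, and 0 columns of sample values went unused.

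Rows were 1 transcript per symbol, the one with the highest mean; 2 transcripts without a symbol (at most 2 reads) were left out. The 7995 genes that averaged 10 reads or more were fitted in edgeR 4.0.16 under R 4.3.3 with TMM, siRNA and agent as additive terms over all 6 libraries (2 residual degrees of freedom), quasi-likelihood tests and Benjamini-Hochberg adjusted p under 0.05 over all genes. Agents and arms taken 1 library against 1 were compared by size alone: a log2 ratio of at least 1 with 2 reads added and an exact 95% Poisson interval without 1. Shares have exact Clopper-Pearson intervals. A count of 0 was set to a floor of 3 reads per library. Alternatives used limma 3.58.1 (voom, and log2 CPM + 15.4) and DESeq2 1.42.0. Python 3.11.15, pandas 2.3.3 and scipy 1.17.1 did the rest. The fit was tested on simulated data. All members that reached 10 reads are named, and 5 just under; of each list of partner genes up to 3 per direction. Members, lists and tests were chosen with earlier results of these data known. Gene places came from GENCODE M21 on GRCm38 by NCBI gene number for 722 of 733 members. Near-identical copies, such as rDNA repeats and snoRNA copies, and overlapping genes are uncertain. Some host genes and one snoRNA sequence are not reported here.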

Additional observations from a re-analysis of the deposited data

How the results depend on the processing

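With the names of the siCtl and siPhf2 arms exchanged, every siPhf2 direction turns by construction: 20 members were called lower in the averaged effect and 20 in each agent, and against siSmyd5 21 were called in the average, 21 with vehicle and 20 with KLA. The averaged log2 values then were -8.86 for Rn45s, -11.14 for Mir5109, -12.50 for Vaultrc5, -8.525 for Rmrp, -10.82 for Snord17, -7.37 for Rpph1, -9.785 for Snora81, -10.22 for Rnu11, -7.98 for Snord49b, -8.29 for Snord104, -4.01 for Snord55, -7.61 for Snord15b, -7.87 for Snord2, -5.71 for Snord22, -6.44 for Snord96a, -8.45 for Snord35b, -10.77 for Snord90, -7.02 for Snora70, -5.745 for Snora28 and -8.19 for Snora69, and for siSmyd5 -8.72 for Mir5109 and -2.33 for Snord55. The 20 members of the siPhf2 effect became 90 with no filter (250 tested) and 4 at a mean of 50 reads (4 tested), and stayed at 20 without any 1 library. The 4 members of the siSmyd5 effect became 2 scaled to total reads, 1 in DESeq2, 0 in limma-voom, 0 in limma on log2 values, 1 at 50 reads and 0 with transcripts summed, and ran from 0 (without the siCtl KLA library) to 8 (without either siPhf2 library). The 3 members of the KLA effect became 6 scaled to total reads, 1 in DESeq2, 1 in limma-voom, 1 in limma on log2 values, 5 with no filter and 0 at 50 reads, and ran from 1 (without the siSmyd5 KLA library) to 3. By size, siSmyd5 with vehicle had 3 scaled to total reads and 3 to header tags; KLA in the siCtl arm had 4 scaled to total reads, 4 with names exchanged and 1 with 5 reads added; KLA in the siPhf2 arm had 2 with names exchanged and 2 scaled to header tags. In the usual order of libraries, the share of reads in members was 0.458%, 0.532%, 0.884%, 0.62%, 59% and 64.4% with transcripts summed, 0.0348%, 0.0331%, 0.0528%, 0.062%, 3.85% and 3.39% without Rn45s, and 0.181%, 0.217%, 0.288%, 0.228%, 13% and 19.7% of all tags. Header tag scaling and the share of all tags were chosen after seeing the data; apart from a change of construction or of the genes tested, the cause was not tested. In all, 72 values for counts and shares kept direction and call, 46 moved and 6 reversed, and for single members 365 kept them, 45 no longer passed and 22 reversed. No paired analysis was possible because each group has 1 library and the shared replicate number 1 pairs nothing. With 0 to 10 reads in most rows of 4 libraries, depth limits every ratio of a single small RNA.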
